A study of Homo sapiens with 6 samples.

Results

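The 10 genes described here are CIITA, the invariant chain gene CD74, the MHC class II chain genes HLA-DRA, HLA-DRB1, HLA-DPA1, HLA-DPB1, HLA-DMA and HLA-DMB, and 2 lysosomal genes of antigen processing, IFI30 and CTSS. They were chosen by name from the 57820 genes of the count table, and a repeated symbol would have been represented by its row with the largest total. Each of the 10 had a row and passed the filter on low counts, which kept 15605 genes for testing.

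RNA was sequenced from M14, a human melanoma line that stably carries a doxycycline-inducible shRNA against STAG2, a subunit of cohesin. The shRNA was present in both groups, and the STAG2-KD cells (KD) received doxycycline for 5 days while the control cells (WT) received none, with 3 libraries per group. An effect of doxycycline itself cannot be told apart from that of the knockdown in this design, and all libraries came from 1 line with 1 shRNA. The study describes the replicates as biologically independent samples, and the labels do not name their cultures.

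MHC class II molecules are heterodimers of an alpha and a beta chain that carry peptides from the endosomal system to the cell surface for recognition by CD4 T cells. CIITA is their master transactivator. It does not bind DNA itself but docks on a complex of RFX, CREB and NF-Y factors assembled on the X and Y boxes of class II promoters. CD74 escorts new class II dimers to the endosome, where cathepsins such as CTSS degrade it, IFI30 reduces disulfide bonds of antigens and HLA-DM exchanges the remaining CD74 fragment for peptide. Professional antigen-presenting cells express these genes at all times, most other cells only after interferon gamma, and a share of melanomas without any added cytokine.

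The promoter boxes on which CIITA works are shown first. Of the 10 genes, 7 matched the RefSeq promoter table (GRCh38.p14), which holds 250 bases before and 50 bases after each start site, and CIITA, HLA-DRA and CTSS did not. The core of the X box was searched as GNNACNNAT and that of the Y box as ATTGG, both on either strand. The X core alone was found in 22.1% of 35116 promoters and the Y core alone in 34.6%, so neither is rare. An X core followed after 23 or 24 bases by a Y core was found in 22 promoters (0.0626%), and these belonged to 20 genes. Among them were HLA-DRB1, HLA-DMA, HLA-DRB5, HLA-DQB1, HLA-DOA and, of the class I genes, HLA-F. The pair was thus found in 2 of the 7 matched genes and in 3 of the 7 other class II genes with a promoter there. HLA-DPA1, HLA-DPB1, CD74, IFI30 and HLA-DMB did not have it in this form. The search fixed the letters and the distance, so X and Y boxes that differ from it would be missed. HLA-DPB1 and HLA-DMB had both cores, but not in this arrangement. With a G required as a further letter of the X core, 9 promoters (0.0256%) were left, including those of HLA-DRB1, HLA-DMA, HLA-DRB5 and HLA-DQB1. HLA-DMB had the X core without a Y core at this distance. The letters in capitals are the X core and, after the spacer, the Y core. All 5 stretches are on the minus strand, at chr6:32589885-32589946 for HLA-DRB1, chr6:32530368-32530429 for HLA-DRB5, chr6:32666736-32666797 for HLA-DQB1, chr6:32953167-32953229 for HLA-DMA and chr6:32941072-32941135 for HLA-DMB.
HLA-DRB1: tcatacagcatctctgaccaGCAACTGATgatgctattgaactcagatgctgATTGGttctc
HLA-DRB5: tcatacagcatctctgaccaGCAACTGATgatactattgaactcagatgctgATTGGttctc
HLA-DQB1: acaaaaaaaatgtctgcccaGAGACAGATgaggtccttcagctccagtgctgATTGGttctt
HLA-DMA: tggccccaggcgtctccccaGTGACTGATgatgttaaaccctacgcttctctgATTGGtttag
HLA-DMB: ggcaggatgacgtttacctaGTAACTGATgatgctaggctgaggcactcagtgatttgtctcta

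The interferon-stimulated response element, a binding motif of factors that act in interferon signalling, was searched as GAAANNGAA on either strand. It was present in 8.11% of all promoters, in 4 of the 8 promoters of the 7 matched genes and in 6 of the 11 promoters of the class I genes. With an A required as a further letter it was present in 3.57% of all promoters, in 0 of the 8 and again in 6 of the 11, so a contrast between class II and class I promoters rested on that letter. The form with the further letter was counted first, and both are given for this reason. B2M, the light chain of class I molecules, and TAP1, a subunit of the peptide transporter, are shown with their overlapping matches in capitals. The B2M stretch lies on the plus strand at chr15:44711353-44711408 and the TAP1 stretch on the minus strand at chr6:32853802-32853857 of the same build. A match is a description of letters, not a bound site.
B2M: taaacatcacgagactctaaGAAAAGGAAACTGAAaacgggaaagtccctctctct
TAP1: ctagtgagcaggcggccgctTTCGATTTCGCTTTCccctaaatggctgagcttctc

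The libraries held between 24895998 and 35181733 expected counts, and a floor of 3 counts corresponded to between 0.087 and 0.112 CPM, for counting error only. CPM here are expected counts on the usual CPM scale, with library sizes scaled by TMM. STAG2 was at 66.5, 34.8 and 28.8 CPM in WT and at 15.96, 7.31 and 6.69 CPM in KD, a log2 fold change of −2.12 (SE 0.43, adjusted p = 0.0342 from edgeR). The libraries numbered 1 stood apart from the others. WT replicate 1 had the fewest expected counts (24895998). Genes above 0 numbered 20646 in WT replicate 1 and 16028 in KD replicate 1, against 17103 to 17995 in the other libraries. Mitochondrial genes took 5.07% of the counts of WT replicate 1 against 2.12% to 2.94% elsewhere, and the summed level of 10 melanocyte lineage markers was 6631 CPM in WT replicate 1 and 2867 CPM in KD replicate 1, against 1441 to 2122 CPM in the other libraries. Since libraries of the same number deviated together, results are also given from a fit with the replicate number as a block where it changes a call.

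M14 cells expressed the class II pathway without added interferon, and the knockdown was not accompanied by a detectable change in the 10 genes. CIITA, CD74 and all 6 class II chain genes lay at or above 8.35 CPM in each of the 6 libraries. None of the 10 genes passed an adjusted p of 0.05 in either direction in edgeR's quasi-likelihood test, where 2.59% of all tested genes did (1.75% higher and 0.839% lower in KD). The count was also 0 of 10 with the replicate block (9.52% of all genes), with DESeq2 (6.47%), with limma-voom (2.64%) and in edgeR without the libraries numbered 1 (4.73%). At an unadjusted p under 0.05 the edgeR test had 1 of the 10, CTSS, which was higher in KD. The median log2 fold change of the 10 genes was −0.27, beside −0.03 for all tested genes. Of the 10, 9 were below 0, as were 8119 of the 15605 tested genes. With the replicate block the median was −0.14, and CIITA, HLA-DPA1 and IFI30 turned above 0 beside CTSS. Most of the 10 genes varied together across the libraries, so the 9 are not separate observations of a decrease.

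**Figure D1:**
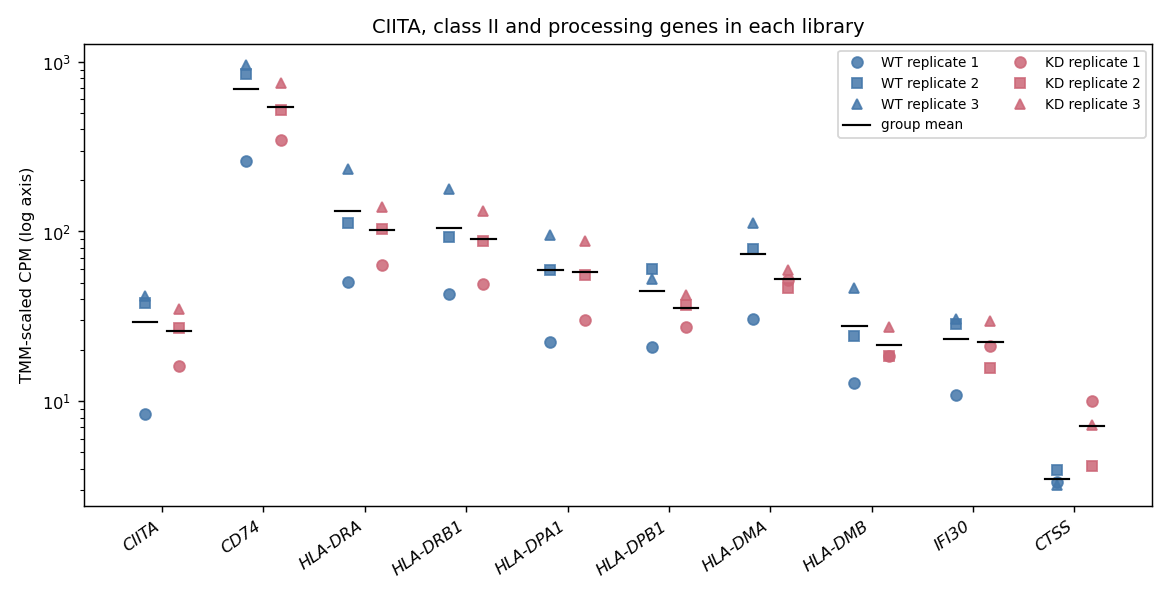
TMM-scaled CPM on a log axis of the 10 genes in each of the 3 WT (blue) and 3 KD (red) libraries, with the replicate number as the symbol and the mean of each group as a bar. The groups overlap in every gene but CTSS, and WT replicate 1 is the lowest library in 9 of the 10 genes.

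CIITA (ENSG00000179583) is the transactivator (chromosome 16 of GRCh37, 10960079 to 11036878, plus strand). In WT replicates 1 to 3 it was at 8.35, 37.8 and 41.6 CPM, and in KD replicates 1 to 3 at 16.04, 26.9 and 35.2 CPM. The KD values fell inside the range of the WT values. The log2 fold change was −0.17 (SE 0.52, adjusted p = 0.935 from edgeR), and its 95% interval ran from 0.399-fold to 1.98-fold of WT. With the replicate block the interval on the log2 scale was −0.55 to 0.65, around an estimate of 0.05. The transcripts of CIITA start from several promoters, which gene-level counts do not distinguish.

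CD74 (ENSG00000019582, chromosome 5, 149781200 to 149792532, minus strand) was the most abundant of the 10 genes. It was at 260.6, 845.1 and 957.7 CPM in WT and at 348.3, 516.6 and 752.4 CPM in KD. The lowest library was WT replicate 1 and the highest WT replicate 3, with all KD libraries between them. The log2 fold change was −0.35 (SE 0.45, adjusted p = 0.816 from edgeR) and −0.22 with the replicate block (95% interval −0.66 to 0.23).

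HLA-DRA (ENSG00000204287, chromosome 6, 32407655 to 32412823, plus strand) encodes the DR alpha chain, and HLA-DRB1 (ENSG00000196126, chromosome 6, 32545679 to 32557625, minus strand) a beta chain that pairs with it. HLA-DRA was at 50.2, 112.8 and 234.5 CPM in WT and at 63.7, 103.6 and 139.1 CPM in KD. HLA-DRB1 was at 42.8, 92.9 and 178 CPM in WT and at 49.2, 87.7 and 132.6 CPM in KD. In both genes the WT libraries enclosed the KD libraries. The log2 fold changes were −0.38 (SE 0.48, adjusted p = 0.819 from edgeR) for HLA-DRA and −0.22 (SE 0.48, adjusted p = 0.902 from edgeR) for HLA-DRB1. Without WT replicate 3 both were above 0, at 0.32 and 0.40. RSEM could divide reads of HLA-DRB1 with the similar HLA-DRB5 and the pseudogene HLA-DRB6. The sum of these 3 genes was 55.6, 121 and 242.4 CPM in WT and 66.1, 113.3 and 179.6 CPM in KD, so the groups also overlapped when the division among them was set aside (exact permutation test, two-sided, p = 0.9).

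HLA-DPA1 (ENSG00000231389, chromosome 6, 33032346 to 33048552, minus strand) and HLA-DPB1 (ENSG00000223865, chromosome 6, 33043767 to 33057473, plus strand) encode the chains of HLA-DP and overlap head to head on opposite strands. HLA-DPA1 was at 22.3, 59.6 and 94.8 CPM in WT and at 30.2, 55.3 and 87.8 CPM in KD, the smallest difference among the 10 genes with a log2 fold change of −0.03 (SE 0.50, adjusted p = 0.991 from edgeR). HLA-DPB1 was at 20.9, 59.9 and 52.6 CPM in WT and at 27.5, 37.03 and 42.2 CPM in KD (log2 fold change −0.32, SE 0.36, adjusted p = 0.785 from edgeR). In both genes the KD libraries again lay within the WT range. The libraries were directional, but the strand setting of the counting is not given in the sources used here. The same limit holds for 2 others of the 10 genes that overlap a gene on the opposite strand. DEXI overlaps CIITA and averaged 40.9 CPM in WT against 42.3 CPM in KD. BRD2 overlaps HLA-DMA and averaged 293.3 CPM in WT against 468.1 CPM in KD.

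HLA-DMA (ENSG00000204257, chromosome 6, 32916390 to 32936871, minus strand) and HLA-DMB (ENSG00000242574, chromosome 6, 32902406 to 32908805, minus strand) encode the peptide exchange factor HLA-DM. HLA-DMA was at 30.6, 78.6 and 111.5 CPM in WT and at 52.1, 46.6 and 59.1 CPM in KD. Its log2 fold change of −0.48 (SE 0.38, adjusted p = 0.659 from edgeR) was the lowest among the 10 genes. Without the libraries numbered 1, HLA-DMA had a log2 fold change of −0.84 with an adjusted p of 0.0848 in the same edgeR test, the lowest adjusted p of the 10 genes under that alternative, which was chosen after the data had been seen. HLA-DMB was at 12.9, 24.1 and 46.5 CPM in WT and at 18.4, 18.4 and 27.2 CPM in KD (log2 fold change −0.38, SE 0.42, adjusted p = 0.777 from edgeR). For both chains the WT libraries varied 3.65-fold and 3.62-fold between the lowest and the highest, and the KD libraries 1.27-fold and 1.48-fold.

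IFI30 (ENSG00000216490, chromosome 19, 18283972 to 18288927, plus strand) encodes the lysosomal thiol reductase GILT. It was at 10.9, 28.5 and 30.3 CPM in WT and at 21.0, 15.7 and 29.8 CPM in KD, with a log2 fold change of −0.07 (SE 0.40, adjusted p = 0.969 from edgeR). Its level is uncertain whatever the strand setting, because the gene ENSG00000268173 overlaps it on the same strand and held more counts. That gene averaged 59.9 ± 28.1 CPM in WT against 33.8 ± 11.97 CPM in KD (SD, n = 3). The sum of both genes was 39.6, 111.6 and 98.4 CPM in WT and 61.4, 56.9 and 49.9 CPM in KD, and the groups overlapped in it too.

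CTSS (ENSG00000163131, chromosome 1, 150702555 to 150738433, minus strand) encodes cathepsin S, the protease that makes the last cuts in CD74 in professional antigen-presenting cells. It was at 3.36, 3.92 and 3.20 CPM in WT and at 10.1, 4.16 and 7.26 CPM in KD. The KD libraries all exceeded the WT libraries, as in 11.8% of all tested genes, although KD replicate 2 was above WT replicate 2 by only 1.06-fold. The log2 fold change was 1.03 (SE 0.45, adjusted p = 0.322 from edgeR), with a 95% interval from 1.02-fold to 4.11-fold, and 0.95 with the replicate block (adjusted p = 0.235 from edgeR). The exact permutation test gave p = 0.1, the smallest two-sided value that 3 libraries against 3 allow.

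**Figure D2:**
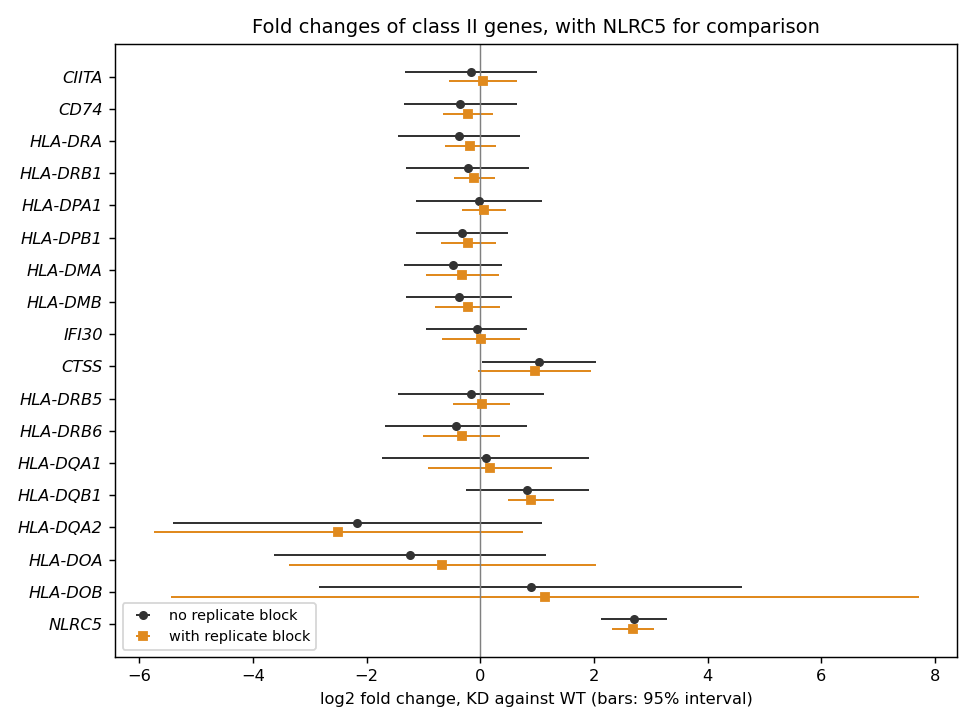
Log2 fold change of KD against WT with its 95% interval for the 10 genes, the 7 other class II genes that were tested and NLRC5, from edgeR without (black circles) and with (orange squares) the replicate number as a block. Intervals cross 0 for the class II genes but for HLA-DQB1 with the block, that of CTSS without the block starts just above 0, and NLRC5 is at 2.705.

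The groups overlapped in 9 of the 10 genes. Such overlap was common, since KD lay wholly above WT in 11.8% of all tested genes and wholly below it in 10.5%. WT replicate 1 was the lowest of the 6 libraries in 9 of the 10 genes, against 21.7% of all tested genes. Within WT the highest library exceeded the lowest by 4.98-fold in CIITA, 3.68-fold in CD74, 4.67-fold in HLA-DRA and a median of 3.66-fold over the 10 genes, against 1.70-fold over all tested genes. In 6 of the 10 genes the libraries numbered 1 were the lowest of both groups, where 22% of all tested genes had this order. In most of these genes the ratio of KD to WT within a replicate number was also not of 1 direction. KD was above WT in replicate 1 and below it in replicates 2 and 3 for 9 of the 10 genes, and for 9.86% of all tested genes. For CIITA these ratios were 1.92, 0.710 and 0.846, and for HLA-DMA they were 1.70, 0.593 and 0.530. CTSS was the exception, with ratios of 3.00, 1.06 and 2.27. The melanocyte marker sum was higher in both libraries numbered 1. The mitochondrial share stood out only in WT replicate 1 (5.07%), since KD replicate 1 (2.94%) was close to KD replicate 2 (2.81%). The part of the marker sum, the mitochondrial share, the depth and the number of genes above 0 in this pattern was not tested.

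**Figure D3:**
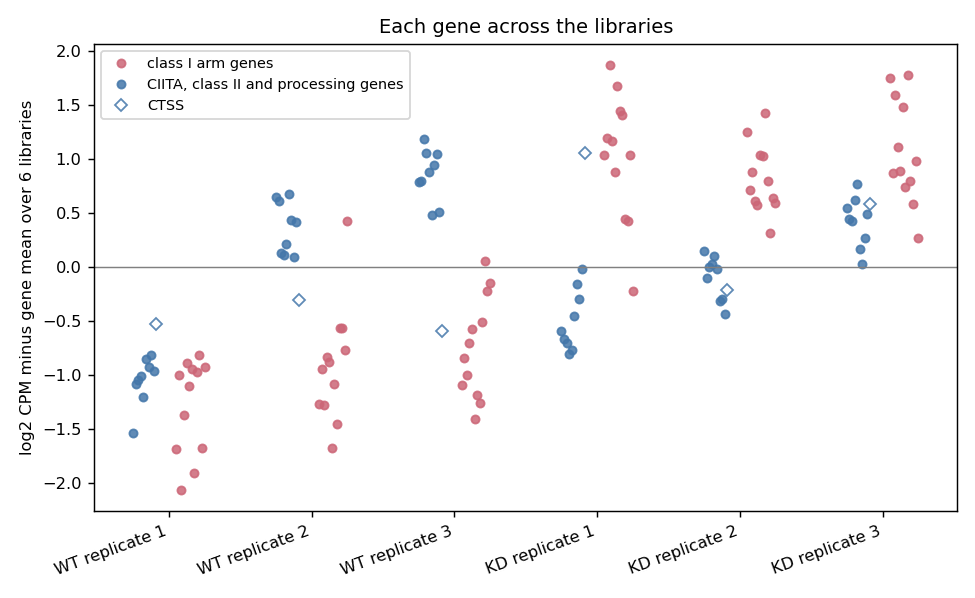
Log2 CPM of each gene minus its mean over the 6 libraries, for the 10 genes (blue, CTSS as an open diamond) and the 12 genes of the class I arm (red). The class II pathway genes other than CTSS are lowest in WT replicate 1 and overlap between groups. In 11 of the 12 class I arm genes all KD libraries are above all WT libraries, against 11.8% of all tested genes.

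Levels of the genes other than CTSS varied together with CIITA across the libraries, as did those of many other genes. Over the 6 libraries, which share 2 conditions and 3 replicate numbers, the Pearson r of log2(CPM + 1) with CIITA was 0.977 for CD74, between 0.840 and 0.959 for the class II chain genes, 0.874 for IFI30 and −0.081 for CTSS. These values are descriptions over 6 points, and 474 of the tested genes had an r above 0.9 with CIITA. The genes outside the lists with the most similar pattern were VIMP, CSRP2 and SF3B4 for CIITA (r = 0.9979, 0.9970 and 0.9959) and BUD13, ZDHHC12 and ING5 for CD74 (r = 0.9948, 0.9925 and 0.9923).

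To compare levels between genes, the CPM were divided by the median length of the annotated coding transcripts. Per kilobase, CD74 was highest with 541.6 ± 294.7 CPM per kb in WT and 424.5 ± 159.8 CPM per kb in KD (SD, n = 3). HLA-DRA followed with 110.2 ± 78.0 CPM per kb in WT, then HLA-DRB1 with 85.5 ± 55.9 CPM per kb and HLA-DMA with 73.1 ± 40.4 CPM per kb. These 3 neighbours in the order were closer to each other than the spread between WT libraries. HLA-DPA1 had 35.1 ± 21.6 CPM per kb, IFI30 23.5 ± 10.8, HLA-DMB 20.6 ± 12.7 and HLA-DPB1 11.1 ± 5.20 CPM per kb in WT, again within the spread of their neighbours. The annotated transcript of HLA-DPB1 is long, at 3991 bases, which lowers its value against HLA-DPA1. CIITA was at 6.28 ± 3.91 CPM per kb and CTSS at 0.956 ± 0.103 CPM per kb in WT.

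The class II genes outside the 10 were not called either, except for HLA-DQB1 under 2 alternatives. Of 9 such genes with a row, 7 passed the filter, and 0 were higher or lower in KD in edgeR without the block, with 0 at an unadjusted p under 0.05 and 0 called by DESeq2 or limma-voom. HLA-DQB1 (ENSG00000179344), the DQ beta chain, was the 1 call with the block, and it was also called in edgeR without a filter (adjusted p = 0.0281). It was at 14.6, 31.1 and 55.2 CPM in WT and at 34.5, 49.6 and 94.9 CPM in KD, so the groups overlapped while KD was higher within each replicate number, by 2.37-fold, 1.59-fold and 1.72-fold. The log2 fold change was 0.83 (SE 0.48, adjusted p = 0.492 from edgeR) without the block and 0.90 (SE 0.18, adjusted p = 0.0124 from edgeR) with it. Relative to HLA-DRA, the log2 ratio of HLA-DQB1 was −1.91 ± 0.158 in WT and −0.83 ± 0.260 in KD (SD, n = 3), without overlap (p = 0.1 in a two-sided exact permutation test, which cannot go lower here, and 0.2 after Benjamini-Hochberg adjustment over 8 ratios). HLA-DQA1, which encodes its alpha partner, was at 1.64, 2.19 and 9.67 CPM in WT and at 3.61, 1.504 and 9.34 CPM in KD. HLA-DQB1 was singled out after its values were seen, and its counts were whole in only 3 of the 6 libraries, so shared reads entered it. HLA-DOA and HLA-DOB, the chains of the HLA-DM inhibitor HLA-DO, averaged 3.10 ± 2.66 and 0.415 ± 0.445 CPM in WT against 1.31 ± 0.862 and 0.782 ± 0.685 CPM in KD (SD, n = 3), and HLA-DQB2 and HLA-DPB2 did not exceed 0.29 CPM in any library.

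The factors that carry CIITA on class II promoters were not called, and their levels differed widely. Over all tested genes the called share was 2.59% in edgeR, 9.52% with the block, 6.47% with DESeq2 and 2.64% with limma-voom. A count of 0 of 10 is little different from these shares. RFXAP, a subunit of RFX, was low, at 1.64, 1.97 and 0.47 CPM in WT and at 1.65, 0.88 and 1.87 CPM in KD. The SE of its log2 fold change was 0.88, so its missing call says little. Of 10 genes for RFX, NF-Y, CREB1 and the recruited acetyltransferases, 0 were higher or lower in KD with and without the block, 0 had an unadjusted p under 0.05 in edgeR, and 0 were called by DESeq2 or limma-voom. RFX5, the DNA-binding subunit of RFX, was at 68.8, 72.6 and 66.6 CPM in WT and at 84.5, 82.6 and 88.1 CPM in KD. Its KD libraries all exceeded the WT libraries, as in 11.8% of all tested genes. The log2 fold change was 0.29 (SE 0.17, adjusted p = 0.488 from edgeR). EP300, a coactivator acetyltransferase, averaged 95.6 ± 11.3 CPM in WT against 103.7 ± 18.9 CPM in KD (SD, n = 3), and NFYC, an NF-Y subunit, 126.7 ± 30.3 CPM against 107.6 ± 20.7 CPM.

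Upstream of CIITA, 4 genes on the way from the interferon gamma receptor are given with their levels. IRF2, which acts with IRF1 at the CIITA gene, went from 12.8 ± 2.17 to 26.4 ± 5.06 CPM (SD, n = 3), with a log2 fold change of 1.04 that was not called (adjusted p = 0.0802 from edgeR) but passed with the block (0.0176), with DESeq2 (0.0179), without a filter (0.0344) and without the libraries numbered 1 (0.0398). IRF1 was at 16.9, 77.4 and 65.4 CPM in WT and at 37.9, 72.2 and 68.1 CPM in KD, with overlapping groups and its lowest value in WT replicate 1. The kinase JAK1 averaged 98.0 ± 6.52 CPM in WT against 91.6 ± 8.31 CPM in KD, and the receptor chain IFNGR2 109.6 ± 30.6 CPM against 125.2 ± 29.1 CPM (SD, n = 3).

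The class I arm of antigen presentation rose in KD. NLRC5, the homolog of CIITA that drives class I genes, was at 15.02, 20.1 and 22.6 CPM in WT and at 99.2, 115 and 162.5 CPM in KD. The groups did not overlap, and the log2 fold change was 2.705 (SE 0.26, adjusted p = 0.000645 from edgeR), that is 6.52-fold with a 95% interval from 4.35-fold to 9.76-fold. The upper bounds of all 10 genes, the highest being 4.11-fold for CTSS, were below that lower bound, as were those of 80.6% of all tested genes, so this count is near the background. The log2 ratio of NLRC5 to CIITA within a library was 0.85, −0.91 and −0.88 in WT and 2.63, 2.10 and 2.21 in KD, a difference of 2.63 (p = 0.1 in the same exact permutation test, 0.2 adjusted over the 8 ratios). Of 12 class I arm genes, 10 were higher and 0 lower in KD, against 1.75% and 0.839% of all tested genes. Their median log2 fold change was 1.89, and with any 1 library left out between 8 and 10 of them passed. TAP1 rose by 3.06 on the log2 scale, HLA-F by 2.79 and B2M by 2.16 (adjusted p = 0.000177, 0.000374 and 0.00132 from edgeR). The rise of class I genes was known from these data when the list was chosen, so its count is not independent evidence of direction.

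Genes of both arms are interleaved on the chromosome. From HLA-DRA to HLA-DPB1 the class II region spans 649.8 kb of chromosome 6 (32407655 to 33057473, GRCh37), in which 19 genes were tested. Of 13 class II genes, 0 were called in edgeR, 0 in DESeq2 and 0 had an unadjusted p under 0.05 in edgeR. Of the 6 other genes, edgeR called 3, namely TAP2, PSMB9 and TAP1, against 2.59% of all tested genes. DESeq2 called PSMB8 as well. All 6 had an unadjusted p under 0.05 in edgeR, as had 2302 of all 15605 tested genes. TAP1 and TAP2 form the peptide transporter of the endoplasmic reticulum, and PSMB8 and PSMB9 are immunoproteasome subunits. These genes lie between HLA-DOB and HLA-DMB. TAP2 averaged 139.8 CPM in WT against 356.8 CPM in KD, and PSMB9 72.7 against 229.9 CPM, whereas HLA-DMB beside them averaged 27.8 against 21.3 CPM. The call of TAP2 was lost without KD replicate 2 or 3, and that of PSMB9 without WT replicate 2 or any 1 of the KD libraries (adjusted p up to 0.0849 for TAP2 and 0.129 for PSMB9 from edgeR), while TAP1 kept it in all 6 fits with 1 library left out. With the replicate block, PSMB8 and BRD2 were also higher in KD (adjusted p = 0.00882 and 0.0119 from edgeR), with HLA-DQB1 as the 1 class II gene.

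**Figure D4:**
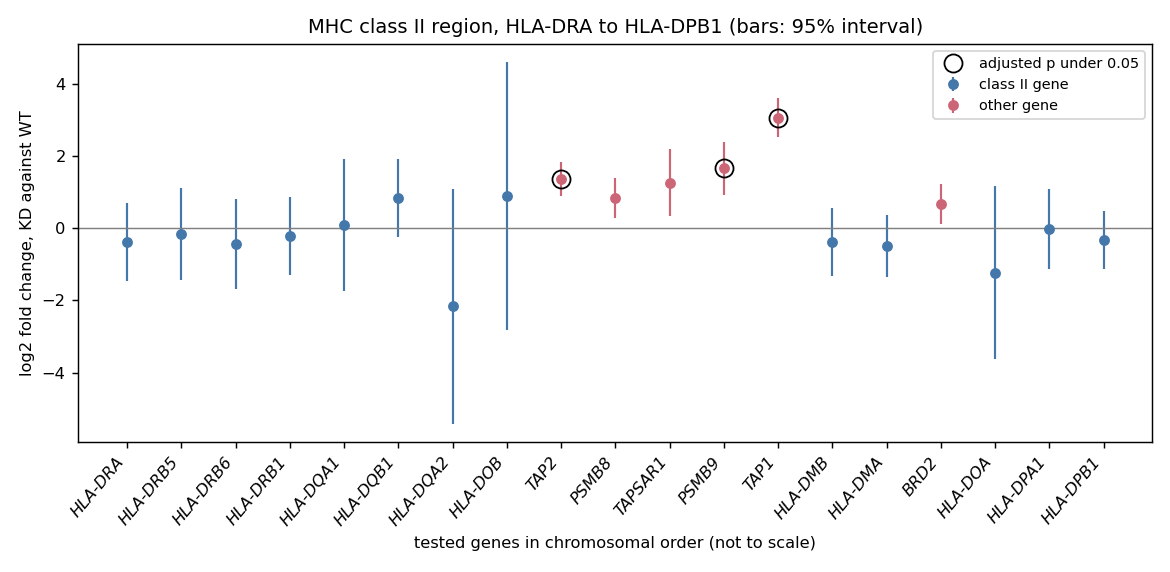
Log2 fold change of KD against WT with its 95% interval for the 19 tested genes from HLA-DRA to HLA-DPB1 in chromosomal order, class II genes in blue and others in red. The circled genes TAP2, PSMB9 and TAP1 passed the adjusted p in edgeR, and the class II genes on both sides of them did not.

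Among lysosomal processing genes, 2 of 12 were called higher and 0 lower, against 1.75% higher and 0.839% lower of all tested genes. KD lay wholly above WT in 5 of the 12 and wholly below it in 1, CTSV, against 11.8% and 10.5% of all tested genes. Cathepsin L, which also trims CD74, was at 28.4, 32.2 and 22.8 CPM in WT and at 55.0, 57.6 and 57.4 CPM in KD for CTSL, a log2 fold change of 1.03 (SE 0.21, adjusted p = 0.0335 from edgeR). CST3, which encodes the cysteine protease inhibitor cystatin C, rose by 0.86 on the log2 scale (SE 0.18, adjusted p = 0.0443 from edgeR). Neither call was stable. CST3 lost it with any 1 library left out, and CTSL with any 1 but WT replicate 1 (adjusted p up to 0.244 for CST3 and 0.18 for CTSL from edgeR). CTSB, an abundant cathepsin, went from 1558 ± 242 to 2841 ± 792.6 CPM (SD, n = 3) and was not called (adjusted p = 0.129 from edgeR), but passed with the block (0.0121), with DESeq2 (0.00914) and without the libraries numbered 1 (0.0372). CTSV, another cathepsin gene, was at 5.55, 6.50 and 3.90 CPM in WT and at 2.08, 2.27 and 1.01 CPM in KD. Its log2 fold change of −1.57 was not called (adjusted p = 0.192 from edgeR, and 0.0811 with the block). CTSD, the most abundant aspartic protease of the list, averaged 2175 ± 354 CPM in WT against 2520 ± 184.5 CPM in KD.

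Of 7 tested genes for the sorting and turnover of class II molecules, 0 were called without the block by edgeR, DESeq2 or limma-voom, and 1 had an unadjusted p under 0.05. That gene was CD82, a tetraspanin that associates with HLA-DM, which averaged 128.6 ± 54.5 CPM in WT against 244.4 ± 42.0 CPM in KD (SD, n = 3) and passed with the block (adjusted p = 0.00882 from edgeR), without a filter (0.00386) and without the libraries numbered 1 (0.0347). MARCH1, a ubiquitin ligase that removes class II molecules from the surface of dendritic and B cells, was at most 1.13 CPM. Of 5 tested genes near CIITA on chromosome 16, 0 were called without the block by edgeR or limma-voom and 1 by DESeq2, and 1 had an unadjusted p under 0.05. That gene was EMP2, a tetraspan membrane protein gene, at 78.9, 160.6 and 181.2 CPM in WT and at 49.96, 78.5 and 72.7 CPM in KD, which was not called (adjusted p = 0.132 from edgeR) but passed with the block (log2 fold change −1.005, adjusted p = 0.00469), without a filter (0.000315), without WT replicate 1 (0.0147) and without the libraries numbered 1 (0.00795). SOCS1, the interferon signalling inhibitor among these genes near CIITA, averaged 6.35 ± 2.09 CPM in WT against 5.57 ± 1.51 CPM in KD.

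Markers were checked for cells that express class II genes at all times. Of 12 leukocyte markers, 4 (MS4A1, CD3E, FCER1A and CLEC9A) were at 0 in every library, and PTPRC, the pan-leukocyte gene, was at 0 in 5 libraries and at 0.58 CPM in WT replicate 3. Their sum was between 4.94 and 7.85 CPM in WT and between 16.3 and 18.4 CPM in KD. The marker with the highest level in each library was ITGAX, an integrin gene of dendritic and other myeloid cells, at 2.39, 3.24 and 2.45 CPM in WT and at 14.8, 13.8 and 11.4 CPM in KD, which was higher in KD (log2 fold change 2.30, SE 0.35, adjusted p = 0.00832 from edgeR, lost without WT replicate 3 or KD replicate 2 with an adjusted p up to 0.0621), and no other marker exceeded 2.17 CPM in any library. The melanocyte lineage markers were present in all libraries, with 8 of 10 log2 fold changes below 0 and a median of −0.84. S100B, a melanoma marker, was the 1 call of the list, lower in KD by a log2 difference of −1.35 (edgeR, adjusted p = 0.00949, and up to 0.0865 without KD replicate 2 or 3). With the block 6 of the 10 lineage markers were called lower, as were 690 of the 15605 tested genes. SOX10, a lineage transcription factor, was at 572.4, 671.1 and 614 CPM in WT and at 323.9, 473.9 and 366.3 CPM in KD, and was called with the block (log2 fold change −0.69, adjusted p = 0.0123 from edgeR) and by DESeq2 (0.0274) but not without the block in edgeR (0.151). The summed level of 4 fibroblast markers was 3.997 CPM in WT replicate 1 and 3.49 CPM in KD replicate 1 against 18.6 to 93.6 CPM elsewhere, most of it COL1A1, which was not called (adjusted p = 0.462 from edgeR) but passed as lower in KD with the block (log2 fold change −1.67, adjusted p = 0.00232), without a filter (1.42e-09) and without the libraries numbered 1 (0.00464). The 3 endothelial markers summed to at most 5.72 CPM. The fibroblast sum was thus lowest in the libraries where CIITA was lowest, and its part in the class II levels was not tested.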

How the data were processed

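RNA-seq of M14 cells comprised 3 WT and 3 KD libraries. Reads were placed on hg19 by STAR, and the authors deposited expected counts per gene from RSEM, without scaling. A read that fits several genes is split among them by RSEM, which bears on the similar HLA genes. CD74, HLA-DRA and HLA-DPA1 had whole counts (within 0.005) in all 6 libraries and HLA-DRB1 in 1. The annotation and the HLA haplotypes used for mapping are not given in the sources used here. Libraries held 24895998 to 35181733 expected counts.

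Counts were rounded, filtered by filterByExpr, scaled by TMM and tested in edgeR 4.0.16 (R 4.3.3) with the quasi-likelihood test without a block. Benjamini-Hochberg adjustment ran over 15605 genes, and an adjusted p under 0.05 was a call. SE were derived from the fold change and its F. Single values were compared by exact permutation tests in SciPy 1.17.1. The study names RSEM for its own comparison, which was not used here. Promoter motifs were counted in a shorter and a longer form, of which the shorter was added after the matches of the longer had been seen. Alternatives were DESeq2 1.42.0, limma-voom (limma 3.58.1), upper-quartile scaling, other filters, unrounded counts, a replicate block and leaving out libraries. The code was tested on simulated data. Positions and lengths came from GENCODE v44 lifted to GRCh37, the build of hg19.

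After removal of group means, log2 CPM over 8707 genes correlated between same-numbered WT and KD libraries with r = 0.614, 0.487 and 0.391 for replicates 1 to 3. Between different numbers r ran from −0.559 to 0.308. It was 0.308 for WT replicate 2 with KD replicate 3 and 0.204 for WT replicate 3 with KD replicate 2. Replicates 2 and 3 were thus less clearly matched than replicate 1. Deviations within a group offset each other, so the match of replicate 1 by itself raises the values among replicates 2 and 3. The labels do not state that equal numbers belong together. The numbers were still taken to pair the libraries, and the fit with the block rests on that. The members and lists were chosen with earlier results of these data known. All 10 genes were named. From each other list, genes that passed, at most 4 by adjusted p, and the 2 most abundant were eligible, and other names were chosen after their values were seen. Some genes of the lists are not reported here by name.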

Additional observations from a re-analysis of the deposited data

How the results depend on the processing

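None of the 10 genes was called in either direction under any of the alternatives run (DESeq2, limma-voom, upper-quartile scaling, no filter, at least 10 counts in every library, unrounded counts, the replicate block, each library left out, and the libraries numbered 1 left out of both groups, the last chosen after the data had been seen). Of 140 comparisons of their log2 fold changes with the reported ones, 121 kept the direction and 19 did not. With the replicate block the direction turned for CIITA (0.049), HLA-DPA1 (0.069) and IFI30 (0.015), and with limma-voom for CIITA (0.030), HLA-DPA1 (0.064) and IFI30 (0.0051). Leaving out single libraries gave a range of −0.61 to 0.17 for CIITA, −0.77 to 0.32 for HLA-DRA, −0.62 to 0.40 for HLA-DRB1, −0.47 to 0.49 for HLA-DPA1, −0.73 to 0.21 for HLA-DMB and −0.41 to 0.17 for IFI30. The cause was not tested. HLA-DQB1 passed with the block (0.90) and without a filter (0.83, adjusted p = 0.0281 from edgeR). Over all genes, 273 were higher and 131 lower in KD as reported. These counts became 550 and 438 with DESeq2, 573 and 530 without a filter, 796 and 690 with the replicate block, 461 and 296 without the libraries numbered 1, and 106 to 340 and 15 to 191 with each library left out. STAG2 ranged from −2.63 to −1.68 on the log2 scale with single libraries left out, where its adjusted p in edgeR was 0.0757 without WT replicate 2, 0.0652 without WT replicate 3, 0.168 without KD replicate 2 and 0.152 without KD replicate 3. The block changed the calls of HLA-DQB1, IRF2, CTSB, CD82, EMP2, PSMB8, BRD2, SOX10 and COL1A1 among the genes named. The upper 95% bounds of CIITA, CD74 and the 6 chain genes lay between 1.297-fold and 2.12-fold and the lower bounds between 0.365-fold and 0.457-fold without the block, so changes inside these bounds are not excluded by that fit.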
